A study of Mus musculus with 11 samples.

Results

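The 8 genes described here, Srebf1, Srebf2, Scap, Insig1, Insig2, Mylip, Stard4 and Tmem97, govern how liver cells sense sterols and set the supply of SREBP transcription factors and lipoprotein receptors. They were chosen by name from this known biology, with earlier results of these data already known. Their counts were read from the 54232 gene identifiers of each count table. All 8 passed the filter on low counts. Expression was measured by RNA-Seq of hepatocytes isolated from Xbp1 LKO mice, in which Cre recombinase driven by the albumin promoter deletes Xbp1 in hepatocytes, and from Xbp1 fl/fl control mice, which carry the floxed alleles. Both genotypes were adult males on the C57BL/6 background and were fed either chow or the HFS diet, a Western diet with fructose and glucose in the drinking water, for up to 6 weeks. There were 3 Xbp1 fl/fl and 2 Xbp1 LKO libraries on chow, each from 1 mouse, and 3 libraries of each genotype on the HFS diet, each a pool of hepatocytes from 2 mice. The question was how expression in these cells differed with the loss of XBP1, a transcription factor of the unfolded protein response, and with the HFS diet. Every comparison between diets also set pools of 2 mice against single mice, so diet and pooling cannot be told apart.

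SREBP proteins are made as precursors in the endoplasmic reticulum membrane, where SCAP, the sterol sensor and escort, holds them. When membrane cholesterol is plentiful, INSIG proteins bind SCAP and keep the complex in place, and when it is scarce, SCAP carries SREBP to the Golgi, where proteases release the active factor. SREBP-2 is best known for driving the enzymes of cholesterol synthesis and SREBP-1c for driving fatty acid synthesis in liver, while MYLIP, also called IDOL, is a ubiquitin ligase that marks lipoprotein receptors for degradation.

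The sequences upstream of 4 genes are shown because these genes passed a test between groups (Insig1 and Tmem97) or encode the SREBP precursors (Srebf1 and Srebf2), and SREBP, NF-Y and Sp1 are known to act together on promoters of this pathway. They were taken from RefSeq on build GRCm38.p6, run 5′ to 3′ on the strand of the gene, start 250 bases before the RefSeq start and end before the first annotated exon base. Capitals mark matches, on either strand, to TCACNCCA (the core of a sterol regulatory element), CACGTG (an E-box), CCAAT (an NF-Y box) and GGGCGG (a GC box). The Srebf2 stretch, chr15:82147019-82147180 on the plus strand, held a sterol regulatory element core, an NF-Y box and a GC box. The Insig1 stretch, chr5:28071162-28071362 on the plus strand, held an E-box, an NF-Y box and 3 GC boxes. The Srebf1 stretch, chr11:60210472-60210721 on the minus strand, precedes the third of 3 RefSeq starts, which lies within the gene, and held an NF-Y box and 2 GC boxes. Of the Srebf1 stretches not shown, that before the first start held an NF-Y box and no GC box. That before the second held 2 GC boxes and no NF-Y box. The Tmem97 stretch, chr11:78550778-78550985 on the minus strand, held an NF-Y box and a GC box.
Srebf2: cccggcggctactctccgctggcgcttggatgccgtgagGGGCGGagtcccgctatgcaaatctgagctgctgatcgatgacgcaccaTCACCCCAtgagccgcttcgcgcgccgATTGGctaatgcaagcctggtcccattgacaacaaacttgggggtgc
Insig1: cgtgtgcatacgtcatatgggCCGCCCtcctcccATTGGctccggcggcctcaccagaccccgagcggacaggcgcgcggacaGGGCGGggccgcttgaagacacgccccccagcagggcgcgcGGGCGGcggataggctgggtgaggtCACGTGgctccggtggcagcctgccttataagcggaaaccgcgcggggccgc
Srebf1: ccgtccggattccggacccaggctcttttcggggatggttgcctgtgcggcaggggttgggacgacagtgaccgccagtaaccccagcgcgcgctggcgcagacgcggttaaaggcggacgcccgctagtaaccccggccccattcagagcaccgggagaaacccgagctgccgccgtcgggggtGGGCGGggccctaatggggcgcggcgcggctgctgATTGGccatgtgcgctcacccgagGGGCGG
Tmem97: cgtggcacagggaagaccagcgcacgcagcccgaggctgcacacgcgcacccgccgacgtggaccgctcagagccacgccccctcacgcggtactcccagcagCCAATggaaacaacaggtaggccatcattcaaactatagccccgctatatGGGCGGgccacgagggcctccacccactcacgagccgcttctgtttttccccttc

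Of 32851 windows of 250 bases upstream of RefSeq starts, 3.67% held the sterol regulatory element core, 6.02% the E-box, 33.8% the NF-Y box and 32.7% the GC box. Among the 12 windows of 7 of the 8 genes, only the Srebf2 window held the sterol regulatory element core, and the E-box was in the Insig1 window and in 1 of 2 Scap windows. A match to these letters is a description of the sequence and does not show that a factor bound there. Other forms of these elements were not searched for, so a window without a match may still hold one.

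Total counts per library ranged from 19191032 to 23888401, and the 7 genes other than Mylip had from 616 to 18473 counts in a library. Xbp1 expression in CPM, the count scaled to a common library total, was 194, 200.3 and 221 in chow-fed Xbp1 fl/fl hepatocytes and 95.7 and 128 in chow-fed Xbp1 LKO hepatocytes, and 301, 295 and 242 against 117, 97.3 and 135 on the HFS diet. The Xbp1 values of the genotypes did not overlap on either diet. The gene count does not isolate the deleted exon, so transcript without it is still counted. Summed CPM of 10 hepatocyte markers ran from 132640 to 160090 in chow-fed Xbp1 fl/fl, 46872 to 77783 in chow-fed Xbp1 LKO, 110490 to 128680 in HFS-fed Xbp1 fl/fl and 61116 to 87303 in HFS-fed Xbp1 LKO libraries. Albumin, which dominates this sum, took 5.88% to 10.9% of counts in Xbp1 fl/fl and 1.67% to 5.40% in Xbp1 LKO libraries. Other hepatocyte markers differed less between genotypes on chow than Alb, at a log2 fold change of -2.14. They were at -0.08 for Hnf4a, -0.12 for Ahsg, -0.08 for Cyp2e1, -0.32 for Tat and 0.54 for Cyp3a11. Larger values were -0.61 for Fgb, -0.66 for Cps1, -0.77 for Ass1 and 0.92 for Cyp7a1. None of the markers other than Alb passed in edgeR. On the HFS diet Alb was at -0.86 and Cps1 at -1.34, while Hnf4a was at -0.09 and Ahsg at -0.07. There 0 of 10 passed in edgeR, 7 had an unadjusted p under 0.05, and DESeq2 called 4 lower and 1 higher. Since the markers moved unequally, the sum does not measure the share of hepatocytes. Markers of macrophages, endothelial and stellate cells were present at low levels, with no marker list above 119 CPM in sum, and of 6 cholangiocyte markers, Krt19, Krt7, Epcam and Cftr had from 0 to at most 12 counts while Sox9 had 35 to 113 and Spp1 29 to 380. In RNA from a cell preparation, fewer cells of a type and less RNA per cell cannot be told apart.

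**Figure D1:**
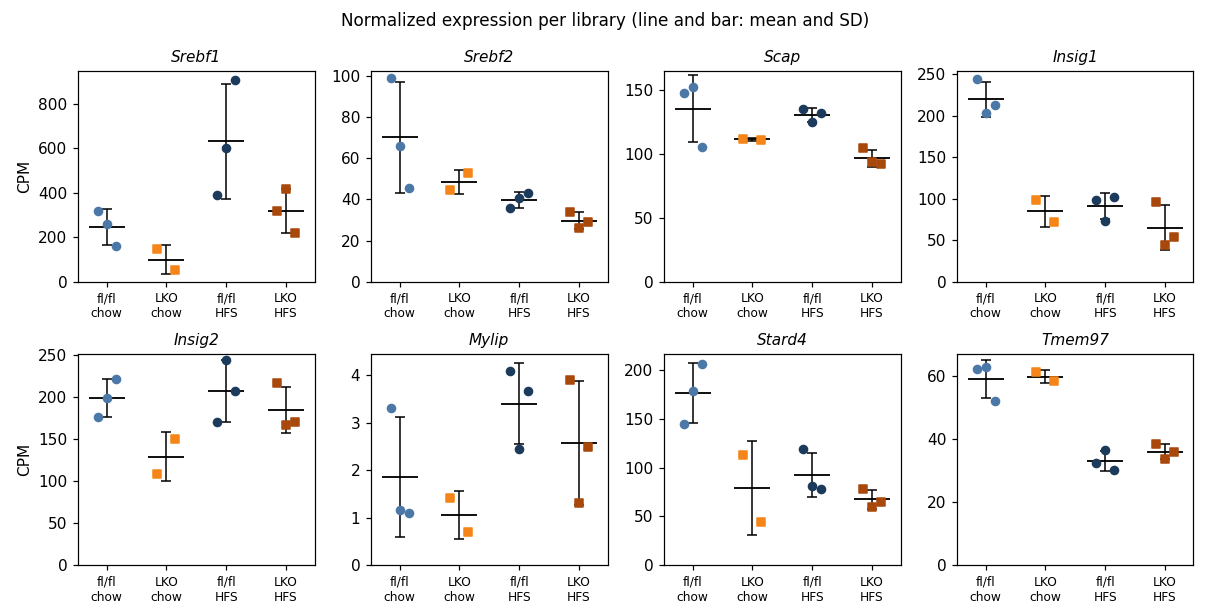
CPM of the 8 genes in each of the 11 libraries, by genotype and diet, with the mean as a line and the SD as a bar. In the 3 control libraries on chow, Insig1 lay between 204 and 244 CPM, above the 8 other libraries, and Tmem97 in the 5 chow libraries lay between 52.0 and 63.1 CPM, above the 6 HFS libraries.

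Srebf1 (ENSMUSG00000020538, chr11:60199089-60222581, minus strand of GRCm38, GENCODE M21 annotation) encodes the SREBP-1 precursors. Its CPM was 318, 260.1 and 162 in chow-fed Xbp1 fl/fl hepatocytes and 147 and 52.4 in chow-fed Xbp1 LKO hepatocytes, and the genotypes did not overlap. With the HFS diet it was 390.0, 599 and 905 in Xbp1 fl/fl and 320, 415 and 220.2 in Xbp1 LKO hepatocytes, where the lowest Xbp1 fl/fl library lay below the highest Xbp1 LKO library. The HFS libraries of each genotype all lay above the chow libraries of the same genotype. The fitted log2 fold change between genotypes was -1.31 ± 0.48 (SE) on chow and -0.99 ± 0.41 on the HFS diet, with adjusted p values of 0.152 and 0.239. That between diets was 1.36 ± 0.41 in Xbp1 fl/fl and 1.68 ± 0.48 in Xbp1 LKO hepatocytes, with adjusted p values of 0.309 and 0.24. None of these passed the threshold of 0.05. With no filter on low counts both genotype differences passed in edgeR (adjusted p = 3.51e-07 on chow and 1.1e-05 on the HFS diet). Each diet difference passed in 1 of 19 alternative settings (adjusted p = 6.6e-10 in Xbp1 fl/fl and 1.19e-10 in Xbp1 LKO hepatocytes). The spread among libraries was wide, with Srebf1 in HFS-fed Xbp1 fl/fl hepatocytes at 631 ± 259 CPM (SD, n = 3). The value between genotypes on chow rested on which Xbp1 LKO library was kept, at -2.24 (adjusted p = 0.041) without replicate 1 and -0.75 (adjusted p = 0.691) without replicate 2. Each of these fits leaves a single chow-fed Xbp1 LKO library, which is assumed to vary like the other groups. Gene counts do not separate the SREBP-1a and SREBP-1c transcripts.

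Srebf2 (ENSMUSG00000022463, chr15:82147181-82205379, plus strand), which encodes SREBP-2, had the opposite order between diets. Its CPM was 98.8, 65.9 and 45.7 in Xbp1 fl/fl and 44.5 and 52.7 in Xbp1 LKO hepatocytes on chow, with overlap between genotypes. In HFS-fed mice it was 35.6, 40.6 and 43.3 in Xbp1 fl/fl and 34.1, 26.2 and 28.9 in Xbp1 LKO hepatocytes, with no overlap. The HFS libraries of each genotype all lay below its chow libraries. The log2 fold change between diets was -0.81 ± 0.23 in Xbp1 fl/fl and -0.71 ± 0.25 in Xbp1 LKO hepatocytes (adjusted p = 0.247 and 0.289). That between genotypes was -0.53 ± 0.25 on chow and -0.42 ± 0.23 on the HFS diet (adjusted p = 0.283 and 0.379). The diet difference in Xbp1 fl/fl hepatocytes passed with DESeq2 (adjusted p = 0.0474) and without Xbp1 fl/fl chow replicate 3 (adjusted p = 0.0447), whereas without Xbp1 fl/fl chow replicate 1, the highest library, it was -0.48 (adjusted p = 0.351).

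The ratio of the SREBP genes within a library does not depend on how libraries are scaled to each other. Per kilobase of exon, Srebf1 exceeded Srebf2 in all 11 libraries. The Srebf1 to Srebf2 ratio per length was 4.11, 5.03 and 4.51 in chow-fed Xbp1 fl/fl and 4.21 and 1.27 in chow-fed Xbp1 LKO hepatocytes. It was 14.0, 18.8 and 26.6 in HFS-fed Xbp1 fl/fl and 12.0, 20.2 and 9.73 in HFS-fed Xbp1 LKO hepatocytes. All HFS libraries lay above all chow libraries, while the genotypes overlapped on both diets. The log2 ratio was higher by 2.08 on the HFS diet in Xbp1 fl/fl (two-sided exact permutation p = 0.1, the smallest that 3 against 3 libraries allow) and by 2.53 in Xbp1 LKO hepatocytes (exact permutation p = 0.2, the smallest that 3 against 2 allow). Over both ratios, 8 such comparisons were made, and none can reach 0.05 in this design.

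**Figure D2:**
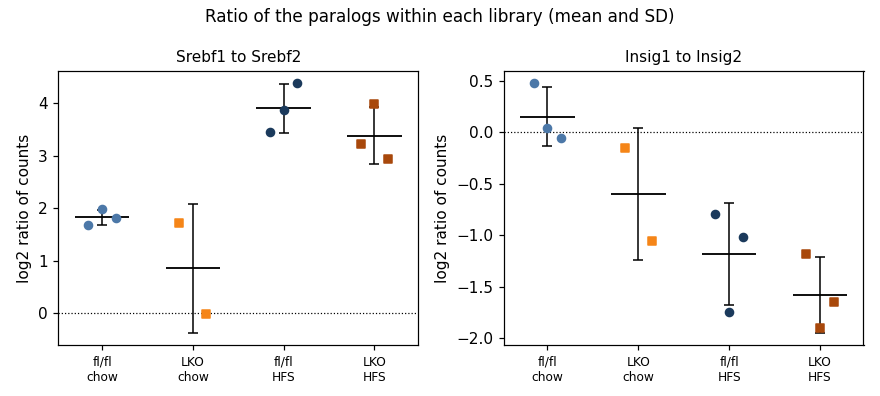
Log2 ratio of counts of Srebf1 to Srebf2 and of Insig1 to Insig2 within each library, with group mean and SD and a dotted line at equal counts. The Srebf1 to Srebf2 ratio averaged 1.83 and 0.86 on chow and 3.91 and 3.38 on the HFS diet in Xbp1 fl/fl and Xbp1 LKO hepatocytes, and the Insig1 to Insig2 ratio averaged 0.15 and -0.60 on chow and -1.18 and -1.58 on the HFS diet.

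Scap (ENSMUSG00000032485, chr9:110333288-110384950, plus strand) encodes the escort that both SREBP proteins need. Its CPM was 148, 153 and 105 in Xbp1 fl/fl and 112 and 111 in Xbp1 LKO hepatocytes on chow, and 135, 125 and 132 against 105, 93.7 and 92.5 on the HFS diet. The genotypes overlapped on chow and did not overlap on the HFS diet, where the log2 fold change was -0.43 ± 0.14 (adjusted p = 0.108). The same difference passed with DESeq2 (adjusted p = 0.0413) and without Xbp1 fl/fl chow replicate 3 (adjusted p = 0.0234). The other log2 fold changes were -0.28 ± 0.15 between genotypes on chow, -0.05 ± 0.14 between diets in Xbp1 fl/fl and -0.20 ± 0.15 between diets in Xbp1 LKO hepatocytes, with adjusted p values of 0.351, 0.962 and 0.609.

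Insig1 (ENSMUSG00000045294, chr5:28071363-28078662, plus strand) encodes the INSIG anchor whose transcription is itself driven by SREBP, and it was the 1 gene of the 8 that passed the test between genotypes on chow. Its CPM was 244, 204 and 213 in chow-fed Xbp1 fl/fl hepatocytes and 98.0 and 72.0 in chow-fed Xbp1 LKO hepatocytes. It fell to 0.386 of the control level, a log2 fold change of -1.37 ± 0.29 with an adjusted p of 0.023 in edgeR's quasi-likelihood test. The call was lost without Xbp1 fl/fl chow replicate 1 or replicate 2 (adjusted p = 0.0523 and 0.05) and without Xbp1 LKO chow replicate 2, the lower of the pair (adjusted p = 0.24, log2 fold change -1.17).

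Insig1 in HFS-fed mice was at 98.3, 72.9 and 102 CPM in Xbp1 fl/fl and 95.7, 44.7 and 54.3 CPM in Xbp1 LKO hepatocytes. These genotypes overlapped, with a log2 fold change of -0.49 ± 0.25 (adjusted p = 0.353) that was -0.88 (adjusted p = 0.032) without Xbp1 LKO HFS replicate 1, -0.28 (adjusted p = 0.726) without replicate 2 and -0.38 (adjusted p = 0.629) without replicate 3. Between diets it was -1.27 ± 0.25 in Xbp1 fl/fl hepatocytes, where chow and HFS libraries did not overlap and the adjusted p was 0.0656, and -0.39 ± 0.28 in Xbp1 LKO hepatocytes (adjusted p = 0.588). The difference between these diet values, tested as an interaction, was 0.88 ± 0.38 with an adjusted p of 0.793. The diet difference in Xbp1 fl/fl hepatocytes passed in 8 of 19 alternatives, among them DESeq2 (adjusted p = 0.000162) and the fits without Xbp1 LKO HFS replicate 1 or 2 (adjusted p = 0.0152 and 0.0467), with log2 fold changes from -1.36 to -1.14 and adjusted p values up to 0.234 over the 19.

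Insig2 (ENSMUSG00000003721, chr1:121304353-121332589, minus strand), the second anchor, is known in liver for a transcript that is regulated separately from Insig1. Its CPM was 175, 198 and 221 in Xbp1 fl/fl and 109 and 149 in Xbp1 LKO hepatocytes on chow, with no overlap and a log2 fold change of -0.62 ± 0.20 (adjusted p = 0.104). In HFS-fed mice it was 169.9, 244 and 207 against 216, 167 and 170.4 CPM, with overlap and a log2 fold change of -0.16 ± 0.17 (adjusted p = 0.707). Between diets the log2 fold change was 0.06 ± 0.17 in Xbp1 fl/fl and 0.52 ± 0.20 in Xbp1 LKO hepatocytes (adjusted p = 0.966 and 0.316). DESeq2 gave an adjusted p of 0.0332 for the genotype difference on chow.

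The INSIG genes were also compared with each other within each library. Per length, the Insig1 to Insig2 ratio was 1.56, 1.15 and 1.08 in chow-fed Xbp1 fl/fl hepatocytes and 1.01 and 0.541 in chow-fed Xbp1 LKO hepatocytes. After HFS feeding it was 0.649, 0.336 and 0.554 in Xbp1 fl/fl and 0.497, 0.301 and 0.358 in Xbp1 LKO hepatocytes. Per length, Insig1 was thus the more abundant of the pair in all 3 control libraries on chow and the less abundant in all 6 HFS libraries. The log2 ratio differed by -1.34 between diets in Xbp1 fl/fl hepatocytes (two-sided exact permutation p = 0.1) and by -0.97 in Xbp1 LKO hepatocytes (exact permutation p = 0.2). Between genotypes on chow it differed by -0.75 (exact permutation p = 0.2). Each of these was without overlap and at the smallest p its design allows. Between genotypes on the HFS diet the log2 ratio differed by -0.39 (exact permutation p = 0.3), with overlap.

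Mylip (ENSMUSG00000038175, chr13:45389742-45412022, plus strand) had the fewest counts of the 8 genes, 16 to 96 per library, and also the lowest CPM per kilobase of exon in each group mean. Its CPM was 3.31, 1.16 and 1.10 in Xbp1 fl/fl and 1.41 and 0.699 in Xbp1 LKO hepatocytes on chow. After HFS feeding it was 4.10, 2.44 and 3.67 in Xbp1 fl/fl and 3.91, 1.30 and 2.49 in Xbp1 LKO hepatocytes. All 4 comparisons overlapped. The log2 fold change was -0.81 ± 0.60 and -0.41 ± 0.48 between genotypes on chow and on the HFS diet, and 0.88 ± 0.50 and 1.28 ± 0.59 between diets in Xbp1 fl/fl and Xbp1 LKO hepatocytes, with adjusted p values from 0.4 to 0.74.

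Markers of other liver cell types varied over the same groups. The 8 endothelial markers summed to 37.0 to 89.6 CPM in chow-fed Xbp1 fl/fl, 23.6 to 29.4 in chow-fed Xbp1 LKO, 73.8 to 119 in HFS-fed Xbp1 fl/fl and 58.6 to 90.3 in HFS-fed Xbp1 LKO libraries, with none at 0. The log2 fold change of all 8 was negative between genotypes on both diets and positive between diets in both genotypes, although 0 of 8 passed in edgeR in any of these. At an unadjusted p under 0.05 there were 7 on chow and 0 on the HFS diet between genotypes, and 1 in Xbp1 fl/fl and 8 in Xbp1 LKO hepatocytes between diets, and DESeq2 called 4, 0, 0 and 7. In chow-fed Xbp1 fl/fl hepatocytes the library with the highest Mylip was also the one with the highest endothelial, macrophage and stellate sums, with 62.3 CPM against 14.2 and 14.9 for macrophages and 55.7 CPM against 17.2 and 22.4 for stellate cells. Without it the Mylip log2 fold change between genotypes on chow was -0.09 (adjusted p = 0.954). All 8 macrophage and all 7 tested stellate markers were also negative between genotypes on chow and positive between diets in Xbp1 LKO hepatocytes, although none passed in edgeR, with 0 and 4 at an unadjusted p under 0.05 in the former and 4 and 5 in the latter, and DESeq2 called 0 and 2 and 0 and 3. In HFS-fed Xbp1 LKO hepatocytes the order differed, since the library with the lowest Mylip, 1.30 CPM, had the middle endothelial sum, 67.6 CPM. The part of RNA from endothelial, macrophage or stellate cells in the Mylip values was not tested.

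**Figure D3:**
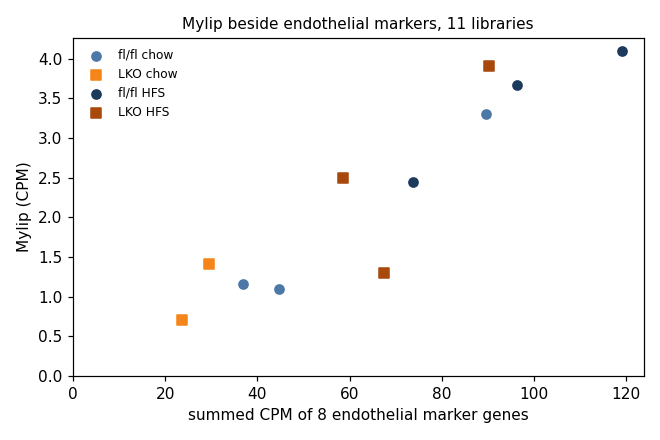
Mylip CPM against the summed CPM of 8 endothelial marker genes in each of the 11 libraries, with colour and shape marking genotype and diet. The lowest Mylip value, 0.699 CPM, and the lowest endothelial sum, 23.6 CPM, were in the same chow-fed Xbp1 LKO library, and the highest of both, 4.10 and 119 CPM, in the same HFS-fed Xbp1 fl/fl library.

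Stard4 (ENSMUSG00000024378, chr18:33199355-33213862, minus strand), which encodes a soluble carrier that moves sterols between membranes, was at 145, 179 and 207 CPM in chow-fed Xbp1 fl/fl hepatocytes and 113 and 44.5 CPM in chow-fed Xbp1 LKO hepatocytes. After HFS feeding it was at 119, 81.0 and 78.6 CPM in Xbp1 fl/fl and 78.5, 59.8 and 64.7 CPM in Xbp1 LKO hepatocytes. The genotypes did not overlap on either diet. The log2 fold change between genotypes was -1.17 ± 0.34 on chow (adjusted p = 0.073) and -0.46 ± 0.29 on the HFS diet (adjusted p = 0.48). Between diets it was -0.93 ± 0.29 in Xbp1 fl/fl, without overlap, and -0.22 ± 0.32 in Xbp1 LKO hepatocytes, with overlap (adjusted p = 0.323 and 0.822). The genotype difference on chow passed with DESeq2 (adjusted p = 0.00723). With a single chow-fed Xbp1 LKO library, assumed to vary like the other groups, it was -1.99 (adjusted p = 0.00549) without replicate 1 and -0.65 (adjusted p = 0.42) without replicate 2, and the diet value in Xbp1 LKO hepatocytes was 0.60 without replicate 1.

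Tmem97 (ENSMUSG00000037278, chr11:78541817-78550777, minus strand) encodes the sigma-2 receptor, a membrane protein of the endoplasmic reticulum and lysosome that binds the cholesterol transporter NPC1. It was at 62.2, 63.1 and 52.0 CPM in chow-fed Xbp1 fl/fl and 61.3 and 58.3 CPM in chow-fed Xbp1 LKO hepatocytes. On the HFS diet it was at 32.4, 36.5 and 30.2 CPM in Xbp1 fl/fl and 38.5, 33.7 and 35.8 CPM in Xbp1 LKO hepatocytes. The HFS and chow libraries did not overlap in either genotype, and the genotypes overlapped on both diets. Tmem97 fell to 0.559 of its chow level in Xbp1 fl/fl hepatocytes, a log2 fold change of -0.84 ± 0.11 with an adjusted p of 0.01. In Xbp1 LKO hepatocytes the log2 fold change was -0.73 ± 0.12, with an adjusted p of 0.0742 here and 0.000112 in DESeq2. The genotypes differed by 0.02 ± 0.12 on chow and 0.12 ± 0.11 on the HFS diet (adjusted p = 0.961 and 0.637). With library totals the latter was 0.38 (adjusted p = 0.0459), beside a shift of 0.27 in the median of all genes. The diet call in Xbp1 fl/fl hepatocytes was lost without Xbp1 fl/fl chow replicate 2 (adjusted p = 0.0594) or Xbp1 fl/fl HFS replicate 3 (adjusted p = 0.0817), and the diet difference in Xbp1 LKO hepatocytes passed without Xbp1 fl/fl chow replicate 3 (adjusted p = 0.035).

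**Figure D4:**
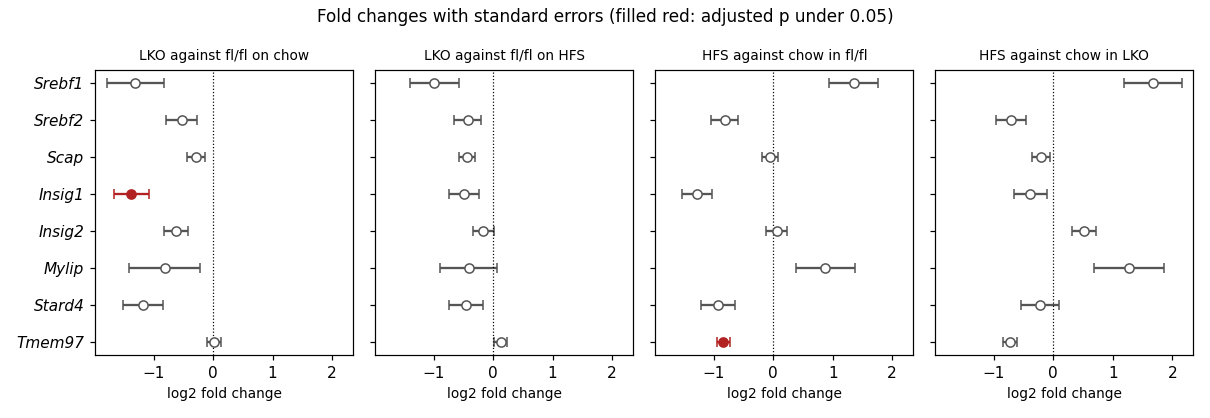
Log2 fold changes of the 8 genes with their standard errors in the 4 comparisons, with red filled points for an adjusted p under 0.05. The filled points are Insig1 between genotypes on chow, at -1.37, and Tmem97 between diets in Xbp1 fl/fl hepatocytes, at -0.84.

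In counts over the 8 genes, 1 was lower in Xbp1 LKO hepatocytes on chow, beside 4.75% of the 13303 genes tested that passed in either direction. At an unadjusted p under 0.05 there were 4 of 8 on chow, beside 2561 of the 13303 genes. On the HFS diet 0 of 8 passed between genotypes in edgeR, beside 4.08% of all genes. There 2 of 8 had an unadjusted p under 0.05, beside 2322 of the 13303 genes, and DESeq2 called 1, beside 1007 genes. With the HFS diet 1 of 8 was lower in Xbp1 fl/fl hepatocytes, beside 0.428% of all genes. In that comparison 5 of 8 had an unadjusted p under 0.05, beside 1190 of the 13303 genes. In Xbp1 LKO hepatocytes 0 of 8 passed with the diet, beside 0.0601% of all genes. Here 4 of 8 had an unadjusted p under 0.05, beside 1683 of the 13303 genes, and DESeq2 called 1, beside 213 genes. No gene passed the test of the interaction between genotype and diet, beside 0% of all genes in edgeR (816 at an unadjusted p under 0.05, 29 called by DESeq2), with 1 of the 8 at an unadjusted p under 0.05 and 0 called by DESeq2. The median log2 fold change of the 8 genes was -0.71 and -0.43 between genotypes on chow and on the HFS diet, and -0.43 and -0.21 between diets in Xbp1 fl/fl and Xbp1 LKO hepatocytes, whereas the median of all genes was within 0.01 of 0 in each. With counts scaled by library totals alone, the median of all genes between genotypes shifted by 0.33 on chow and 0.27 on the HFS diet, and the values of Scap on chow and Insig2 on the HFS diet turned positive.

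The enzymes of cholesterol synthesis, the classical targets of SREBP-2, included genes that were lower in every comparison. Of 22 enzymes, 7 were lower in Xbp1 LKO hepatocytes on chow and none higher, with a median log2 fold change of -1.02. The smallest p values were those of Sc5d at -0.96, Pmvk at -1.20 and Lss at -1.16 (adjusted p = 0.0118, 0.0138 and 0.0206). With the HFS diet, 15 of 22 were lower in Xbp1 fl/fl hepatocytes, with a median of -1.59, and the smallest unadjusted p values were those of Mvd at -3.01, Hmgcs1 at -2.56 and Pmvk at -1.98 (each adjusted p = 0.0033). In Xbp1 LKO hepatocytes 2 were lower with the diet, Fdps at -3.04 and Pmvk at -1.63 (adjusted p = 0.0262 and 0.0292), with a median of -1.06. Between genotypes on the HFS diet 1 was lower, Pmvk at -0.84 (adjusted p = 0.0466), with a median of -0.29. These are edgeR's calls, and the counts between diets were closer by other measures, with DESeq2 calling 17 enzymes lower in Xbp1 fl/fl and 12 in Xbp1 LKO hepatocytes and 19 and 17 at an unadjusted p under 0.05. Between genotypes DESeq2 called 11 lower on chow and 3 on the HFS diet. The interaction of genotype and diet passed for 0 of 22 in edgeR, with 10 at an unadjusted p under 0.05, and for 2 in DESeq2.

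The lipogenic targets of SREBP-1 had negative medians between genotypes. Between diets the medians were near 0 with genes on both sides, 7 positive and 9 negative in Xbp1 fl/fl and 9 and 7 in Xbp1 LKO hepatocytes. Scd1 was at 1.48 and 2.26 and Acly at -1.05 and -0.26. The summed CPM of the list was higher with the HFS diet, at 9568 to 12361 on chow against 19839 to 26005 in Xbp1 fl/fl. In Xbp1 LKO hepatocytes it was 1981 to 4385 on chow against 4920 to 9632. Of 16 genes, 5 were lower in Xbp1 LKO hepatocytes on chow, among them Acly at -1.75, Acss2 at -1.36 and Elovl5 at -1.39 (adjusted p = 0.0101, 0.0119 and 0.0151), and the median was -0.95. In HFS-fed mice 1 passed between genotypes in edgeR, the stearoyl-CoA desaturase gene Scd1 at -2.10 (adjusted p = 0.0296), with a median of -0.80, while 13 of 16 had an unadjusted p under 0.05 and DESeq2 called 7 lower and 1 higher. Between diets 1 was lower in Xbp1 fl/fl hepatocytes, the acetyl-CoA synthetase gene Acss2 at -1.22 (adjusted p = 0.0446), with a median of -0.05. In Xbp1 LKO hepatocytes 0 passed in edgeR, with 3 at an unadjusted p under 0.05 and 2 called higher by DESeq2, and the median was 0.14.

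LXR is the oxysterol receptor that drives Srebf1 and Mylip. Of 8 genes for LXR and its targets, 3 were higher with the HFS diet in Xbp1 fl/fl hepatocytes, the sterol exporters Abcg5 at 1.34, Abcg8 at 1.22 and Abca1 at 0.92 (each adjusted p = 0.0494). None passed in Xbp1 LKO hepatocytes in edgeR, where Abcg5 was at 0.89, Abcg8 at 0.49 and Abca1 at 0.79. There 6 of the list had an unadjusted p under 0.05, of which only Nr1h2 was lower, at -0.41. DESeq2 called 2 higher and 1 lower. Between genotypes, 1 was lower on each diet, Smpdl3a at -0.64 on chow and Abcg8 at -1.11 on the HFS diet (adjusted p = 0.0158 and 0.0211).

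None of 12 genes for the processing and turnover of SREBP passed in any comparison in edgeR, with 1 to 4 at an unadjusted p under 0.05 in the genotype and diet comparisons and up to 1 called by DESeq2. The Golgi proteases Mbtps1 and Mbtps2 had log2 fold changes between -0.04 and 0.38. Of 15 genes for sterol transport in the cell and lipoprotein receptors, 1 was higher and 1 lower in Xbp1 LKO hepatocytes on chow, the VLDL receptor gene Vldlr at 3.19 and the lysosomal sterol carrier gene Npc2 at -0.55 (adjusted p = 0.025 and 0.0336). On the HFS diet 2 were lower, the lipoprotein receptor genes Lrp1 at -1.21 and Scarb1 at -0.80 (adjusted p = 0.014 and 0.0444). None passed between diets in edgeR, with 5 and 4 at an unadjusted p under 0.05 and 2 and 1 called by DESeq2 in Xbp1 fl/fl and Xbp1 LKO hepatocytes.

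**Figure D5:**
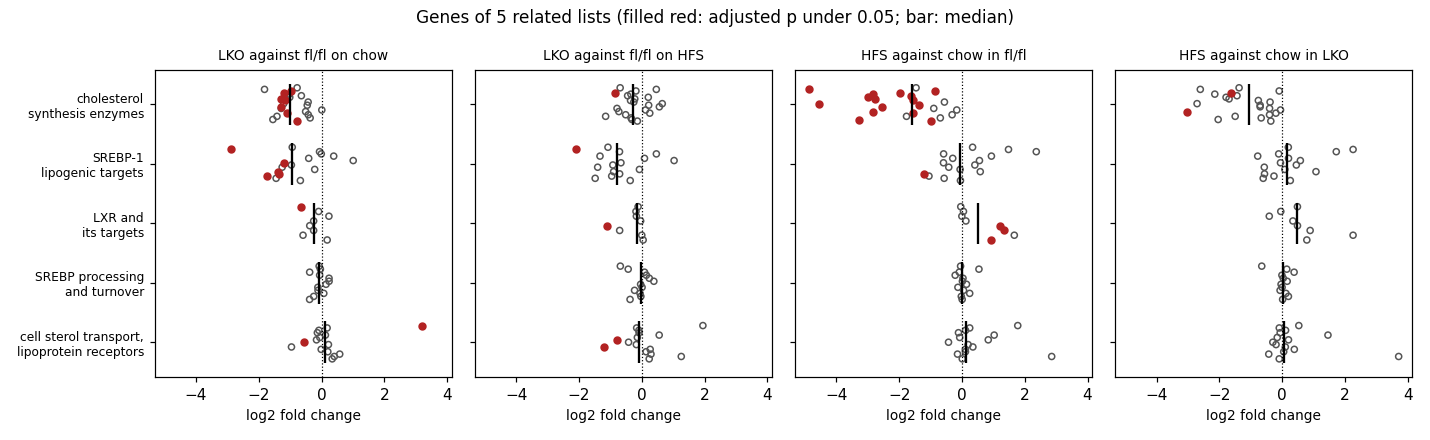
Log2 fold changes of the genes of 5 related lists in the 4 comparisons, 1 point per gene, red where the adjusted p was under 0.05, with a bar at the list's median. For cholesterol synthesis all 22 points lie below 0 in both diet comparisons, and the medians are -1.59 in Xbp1 fl/fl and -1.06 in Xbp1 LKO hepatocytes.

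The genes most alike to each member over the 11 libraries were found by Pearson's r of log2 CPM among 8878 or 8879 genes with a mean of at least 5 CPM. These r values describe libraries that share genotype, diet and depth and carry no test. Mmab (r = 0.95) and Sars2 (0.94) were among the 3 genes with the highest r to Srebf2. Insig1 was most like Acss2 (0.96), and Ugt1a5 (0.95), whose exons are shared with other Ugt1a genes, was also among its 3 highest. Stard4 was most like the sterol desaturase gene Sc5d (0.96), Ndufc1 (0.95) and Dixdc1 (0.93), and Tmem97 most like the squalene epoxidase gene Sqle (0.95), Rras (0.94) and Enho (0.93).

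Scap was most like Os9 (r = 0.97), Rab5b (0.96) and Psen2 (0.95), and Insig2 most like Abhd2 (0.91), Rab6a (0.90) and Fndc3b (0.87). Srebf1 was most like Gm20319 (0.95), Rsrc1 (0.94) and Irf5 (0.94). The genes most like Mylip were Fcgr2b (0.93), Oit3 (0.93) and Stab1 (0.92), of which Oit3 is on the endothelial marker list. Between members, r was 0.87 for Insig1 and Stard4 and 0.81 for Srebf2 and Insig1, but -0.19 for Srebf1 and Srebf2 and 0.22 for Insig1 and Insig2.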

How the data were processed

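RNA of isolated hepatocytes was sequenced on an Illumina instrument (the methods name a stranded mRNA kit, the labels a total RNA kit), and the authors deposited 1 table of whole-number counts per gene for each library, not normalized. For the step from reads to counts the methods name kallisto and tximport, whereas the submitters' processing notes list cutadapt 1.13, STAR, HTSeq 0.6.1p1 and DESeq2 with build mm10. The sources differ and it was not settled which made the counts; all 37 mitochondrial genes were at 0 in every library.

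Of 54232 Ensembl identifiers, 54079 matched GENCODE M21. The 8 genes, the related lists and the markers were chosen with earlier results of these data known. Counts were scaled by TMM and tested with edgeR 4.0.16 (R 4.3.3), quasi-likelihood test, on the 13303 genes that passed filterByExpr (minimum count 10), with all 11 libraries in 1 fit, no covariate beside the group, and Benjamini-Hochberg adjustment over all genes tested. The fit took single mice and pools to have the same spread. CPM is relative to the TMM-scaled library total, fold changes are on edgeR's log2 scale and ± is 1 SE unless SD is given. Paralog ratios were tested by a two-sided exact permutation test over libraries (scipy 1.17.1). The test code was checked on simulated data.

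Groups came from the sample labels. Libraries of 1 group were separate mice on chow and separate pools on the HFS diet, and no pair agreed within sampling noise. All 8 genes were named in every comparison; of each list up to 3 genes with the smallest p among those past the threshold were named, and the 3 genes most alike to each. Some genes are not reported here. The deviations of libraries that share a title number from their group means had r from -0.199 to 0.232. With file-name numbers r reached 0.249. With so few libraries per group these values cannot exclude a pairing, and the main test used none. Srebf1 overlaps Rai1 on the opposite strand (at most 477 counts), and strand use in counting is not given in the sources used here. Alternatives were DESeq2 1.42.0, RLE size factors, library totals, no filter, a minimum count of 50, only the groups compared, replicate blocks and leaving out each library.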

Additional observations from a re-analysis of the deposited data

How the results depend on the processing

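Over 19 alternatives, Insig1 between genotypes on chow stayed negative (log2 fold change -1.61 to -1.06) and passed in 16, and Tmem97 between diets in Xbp1 fl/fl hepatocytes stayed negative (-0.92 to -0.78) and passed in 17. Each lost call came from leaving out a library of the groups compared. Fits that left out a library of another group kept all libraries of the comparison, so they vary its fold change little. They could still move the adjusted p in edgeR across the threshold. Scap between genotypes on the HFS diet went from 0.108 to 0.0234 without Xbp1 fl/fl chow replicate 3. How many of the 8 genes passed depended on the setting, and the cause was not tested. In the order genotype on chow, genotype on the HFS diet, diet in Xbp1 fl/fl and diet in Xbp1 LKO hepatocytes, the counts were 1, 0, 1 and 0 as reported, 3, 1, 3 and 1 with DESeq2, 5, 2, 5 and 4 with no filter on low counts (and 1, Insig1, for the interaction), 1, 1, 2 and 1 with library totals, and 1, 1, 2 and 0 with only the groups compared. With the replicate block from title numbers the counts were 1, 0, 2 and 0, and with the replicate block from file-name numbers 1, 0, 2 and 1, with Insig1 between diets in Xbp1 fl/fl hepatocytes newly past the threshold in both (adjusted p = 0.0242 and 0.0197). Leaving out each library in turn gave 0 to 3, 0 to 1, 0 to 2 and 0 to 1, and 0 for the interaction. None of the 8 paralog ratio differences changed sign. RLE size factors and a minimum count of 50 left these counts as reported.

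Of the single-gene values, 557 kept their direction and side of the threshold, 36 newly passed, 5 no longer passed and 10 changed sign. With library totals Scap between genotypes on chow was at 0.0494 and Insig2 between genotypes on the HFS diet at 0.0908. Tmem97 between genotypes on chow was at -0.0305 with the title block and from -0.0668 to 0.0662 with a library left out; Scap and Insig2 between diets in Xbp1 fl/fl hepatocytes ranged from -0.203 to 0.0453 and from -0.0745 to 0.184, and Stard4 between diets in Xbp1 LKO hepatocytes from -0.728 to 0.602.

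Counts over all genes, 632, 543, 57 and 8 in the same order and 0 for the interaction, were 1130, 1007, 181, 213 and 29 with DESeq2 and 1507, 1438, 499, 722 and 269 with no filter. Library totals gave 3000 and 1483 between genotypes, of which 89.5% and 86.9% were higher against 36.4% and 47.2% as reported. Between diets library totals gave 58 and 10. With only the groups compared the counts were 233 and 809 between genotypes and 0 between diets in Xbp1 LKO hepatocytes. The replicate blocks gave 19 and 53 for the latter. Between genotypes the block from title numbers gave 455 and 412, and that from file-name numbers 488 and 429. Leaving out each library in turn gave 69 to 762, 184 to 662, 6 to 59 and 0 to 36. Mylip had 16 to 96 counts, with a wide spread within a group (60, 20 and 22 in chow-fed Xbp1 fl/fl). With 2 chow-fed Xbp1 LKO libraries, 1 library can decide a call.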
